A study of Mus musculus with 6 samples.

Results

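Calmodulin is the small calcium sensor of nearly every cell, and 8 genes of its neuronal circuit were followed here across 6 sequencing libraries. They are the calmodulin genes Calm2 and Calm3, the CaM kinase II subunit genes Camk2a and Camk2b, the kinase inhibitor gene Camk2n1, the calcineurin subunit gene Ppp3ca, and the calmodulin-binding protein genes Nrgn (neurogranin) and Pcp4. They were taken by symbol from a table of 55367 gene symbols, and all 8 were found in it. The material was tdTomato-positive cells, called neurons in the sample titles, that had been sorted out of the dentate gyrus of the hippocampus. They came from mice of the genotype TRAP2;Ai9 and were profiled by Smart-seq2, which copies polyadenylated RNA along its whole length. Those mice carry a tamoxifen-inducible Cre at Fos (Fos-iCreERT2) and a Cre-dependent tdTomato at Rosa26, so any cell in which Fos was active while tamoxifen was present can be labelled, whatever its type. Both groups had been through learned helplessness, a procedure of stress without escape, and their labelled cells are the ones tagged around it. The NR group (3 libraries) then had no running, and the Run group (3 libraries) had 28 days of voluntary running. All 6 libraries carry the same batch label. The labels do not say how many animals or cells stand behind a library. The p-values therefore rest on the spread between libraries, which may be technical. The test used also draws on the spread of other genes of like level.

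When calcium enters a neuron it binds calmodulin, which then switches on CaM kinase II, the abundant kinase of excitatory synapses, and calcineurin, a phosphatase that opposes it. Neurogranin and PCP4 carry an IQ motif, a short calmodulin-binding stretch, and set how much calmodulin is free and how fast it takes up calcium. In the hippocampus this circuit is best known for long-term potentiation and depression, the lasting changes of synaptic strength tied to memory.

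Calm2 and Calm3 are separate genes that encode an identical calmodulin protein, and their coding letters show how reads can tell them apart. The first 150 coding bases of the GENCODE M21 transcripts Calm2-201 and Calm3-201 are printed from the start codon, 5′ to 3′. Capitals mark the 23 positions at which they carry different bases.
Calm2: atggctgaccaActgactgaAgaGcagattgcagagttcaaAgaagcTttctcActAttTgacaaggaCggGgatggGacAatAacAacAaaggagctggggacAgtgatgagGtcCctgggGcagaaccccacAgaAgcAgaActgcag
Calm3: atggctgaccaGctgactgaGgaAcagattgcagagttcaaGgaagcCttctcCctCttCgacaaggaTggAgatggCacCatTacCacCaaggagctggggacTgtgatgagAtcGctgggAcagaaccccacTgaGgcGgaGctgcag

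Over the whole coding sequence of 447 bases, Calm2 and Calm3 were identical at 369 positions (82.6%) and differed at 78, of which 74 lay at the last base of a codon. The longest run of bases they share without a difference was 17. No window of 50 bases was shared between their transcripts. Processed pseudogenes are the closer copies. Of 1512 windows of 50 bases in annotated Calm2 transcripts, 147 (9.72%) also occur in Gm7308, Gm15720 or Gm14480, and of 2462 in Calm3, 62 (2.52%) occur in Gm5881. These 4 pseudogenes were listed at no more than 5.92 FPKM in any library, so Calm2 and Calm3 are uncertain to the extent that reads in those windows were divided.

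FPKM, the unit of the deposited table, scales fragment counts by transcript length and library size, so levels of different genes can be set side by side. The 6 libraries were alike in summed FPKM (473786 to 492021) and held 5426 to 7355 genes at FPKM of at least 1. An entry of 0 can be a failed estimate, because 4 of 12 genes that every cell uses were themselves listed at 0 in at least 1 library. Means ± SD are therefore printed only for genes at FPKM 1 or more in all 6 libraries. The libraries also held transcripts that mark several cell types. Of 10 pan-neuronal markers, 3 reached FPKM 1 in every library, and their summed FPKM ran from 368 to 902 in NR and from 674 to 1276 in Run. Of 10 astrocyte markers, 9 did so, with sums of 2878 to 5406 in NR and 2896 to 5694 in Run. No dentate granule neuron marker out of 9 reached FPKM 1 in all 6 libraries (sums of 40.5 to 270.1 in NR and 46.5 to 203 in Run), and Tdo2 was at 0 throughout. In NR and Run the sums were 257 to 1399.8 and 145 to 964 for 8 oligodendrocyte markers, 55.0 to 553 and 179 to 839.7 for 8 microglial, 846 to 2282 and 783 to 1613 for 6 endothelial, and 919 to 2895 and 479 to 1523 for 5 mural markers. CA pyramidal markers summed to 3.60 to 135 in NR and 7.75 to 84.0 in Run, with Fibcd1, Spink8 and Neurod6 at 0 throughout. Interneuron markers summed to 52.2 to 122 in NR and 23.7 to 238 in Run, with Sst, Pvalb, Npy and Lhx6 at 0 throughout. Precursor markers summed to at most 56.3 and choroid plexus and ependymal markers to at most 159. Fewer cells of a type and less RNA per cell cannot be told apart in such libraries.

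Calm2 (ENSMUSG00000036438.13, chromosome 17, 87433412 to 87446935, minus strand of mm10) was the most abundant of the 8 genes in every library. Its level was 1217, 1542 and 1391 FPKM without running (NR replicates 1 to 3) and 2197, 1407 and 1118 after running (Run replicates 1 to 3), and values are given in that order throughout. Run replicate 1 was the highest and Run replicate 3 the lowest, so the NR values lay inside the Run range. Calm2 ranked between 19 and 41 among all symbols of a library. The group means were 1383 ± 163 and 1574 ± 559 FPKM (SD, n = 3 each).

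Calm3 (ENSMUSG00000019370.10, chromosome 7, 16915379 to 16924114, minus strand) had 66.5, 127 and 113 FPKM without running and 195, 115 and 96.0 after running. The groups overlapped, with the lowest value in NR replicate 1 and the highest in Run replicate 1. The means were 102 ± 31.7 (NR) and 135 ± 52.5 (Run; SD, n = 3 each).

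The ratio of the Calm2 to the Calm3 level was 18.3, 12.1 and 12.4 without running and 11.3, 12.2 and 11.6 after running. NR replicate 1 stood apart from the other 5, which lay within 11.3 to 12.4, and the groups overlapped.

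CaM kinase II assembles into large rings from the products of 4 genes, of which Camk2a and Camk2b are the neuronal ones. Camk2a (ENSMUSG00000024617.16, chromosome 18, 60925618 to 60988152, plus strand), the alpha subunit of excitatory synapses, had 66.1, 55.2 and 48.9 FPKM without running and 106, 37.3 and 47.2 after running. The highest and the lowest value both fell in the Run group. The means were 56.7 ± 8.69 (NR) and 63.5 ± 37.3 (Run; SD, n = 3 each).

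Camk2b (ENSMUSG00000057897.14, chromosome 11, 5969644 to 6066362, minus strand), the actin-binding beta subunit, was listed at 0, 49.5 and 18.7 FPKM in NR and at 20.9, 30.7 and 4.31 in Run. The NR group held both the highest and the lowest value. Camk2a exceeded Camk2b in 6 of 6 libraries.

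The makeup of the kinase family, as listed, varied widely. Its extremes rest partly on entries at 0, which can be failed estimates. Camk2g, the broadly expressed gamma subunit gene, had 78.8, 65.2 and 7.60 FPKM without running and 103, 55.0 and 0 after running, and Camk2d, the delta gene, had 0.0195, 7.53 and 0.0998 without running and 23.9, 0 and 0 after running. The share of Camk2a in the summed FPKM of the 4 genes ran from 30.3% in Run replicate 2 to 91.6% in Run replicate 3. That of Camk2g ran from 0% in Run replicate 3 to 54.4% in NR replicate 1. The sum ran from 51.5 to 254 FPKM.

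**Figure D1:**
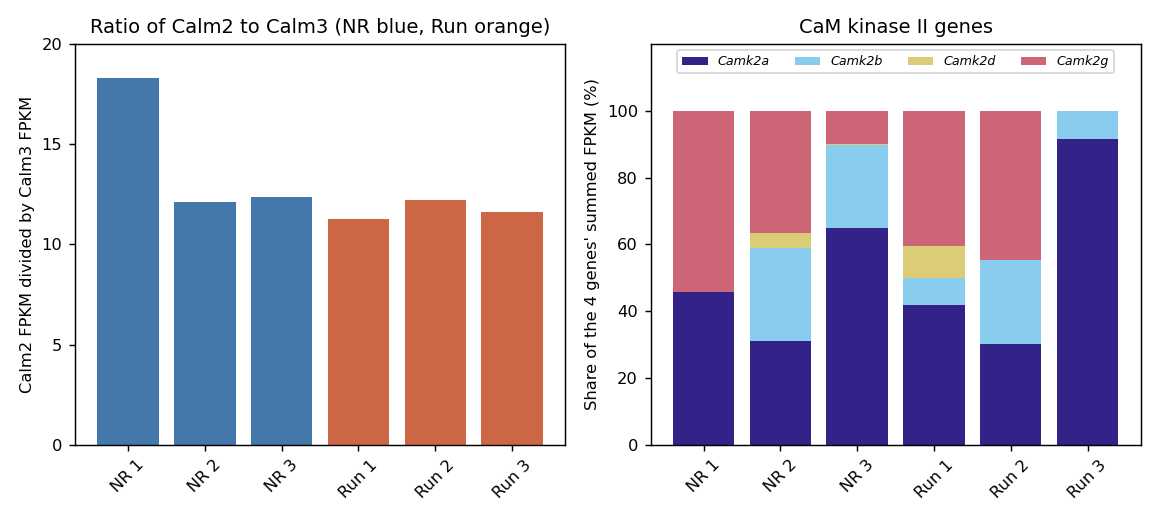
Left, Calm2 FPKM divided by Calm3 FPKM (vertical axis) in the 3 NR (blue) and 3 Run (orange) libraries; right, share of each CaM kinase II gene in the summed FPKM of the 4 genes (percent, vertical axis) in the same libraries. The ratio is 18.3 in NR replicate 1 and 11.3 to 12.4 in the others, while the share of Camk2a spans 30.3% to 91.6%. The highest share is in Run replicate 3, where Camk2g and Camk2d are listed at 0.

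Camk2n1 (ENSMUSG00000046447.3, chromosome 4, 138454314 to 138460123, plus strand) encodes a small protein that binds and inhibits active CaM kinase II. It had 11.7, 14.3 and 10.5 FPKM without running and 36.9, 28.9 and 8.68 after running. Run replicates 1 and 2 lay above all NR libraries and Run replicate 3 below them. The means were 12.2 ± 1.92 and 24.8 ± 14.6 (SD, n = 3 each). The ratio of Camk2a to Camk2n1 was 5.66, 3.87 and 4.65 without running and 2.88, 1.29 and 5.43 after running, so the groups overlapped in that as well.

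Ppp3ca (ENSMUSG00000028161.17, chromosome 3, 136670124 to 136937727, plus strand), the main catalytic subunit of calcineurin in brain, had 0.0210, 172 and 127 FPKM without running and 153, 82.9 and 78.0 after running. NR replicate 1 stood near 0, and the other two NR libraries were above 2 of the 3 Run libraries. The regulatory subunit gene Ppp3r1 had 135, 109 and 85.2 without running and 215, 81.0 and 0.0390 after running, so the library near 0 was a different one. The second catalytic gene, Ppp3cb, exceeded FPKM 1 in NR replicate 2 (3.14) and in no other library. Rcan2, of the family of calcineurin regulators, had 37.7, 22.0 and 0 without running and 0.0150, 40.0 and 0 after running.

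Nrgn (ENSMUSG00000053310.11, chromosome 9, 37544492 to 37552904, minus strand), a buffer of calcium-free calmodulin in dendrites, had 30.3, 96.7 and 6.45 FPKM without running and 125, 41.6 and 30.4 after running. Of the 5 genes measured above FPKM 1 in all libraries it had the widest range, 19.3-fold from lowest to highest. The means were 44.5 ± 46.8 and 65.6 ± 51.5 (SD, n = 3 each).

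Pcp4 (ENSMUSG00000090223.2, chromosome 16, 96467606 to 96525793, plus strand), a small protein gene whose product speeds calcium exchange on calmodulin, had 0, 435 and 345 FPKM without running and 422, 306 and 223 after running. In 5 of 6 libraries it was second only to Calm2 among the 8 genes, and in NR replicate 1 it was listed at 0. Its locus overlaps Igsf5 on the same strand, and 196 of 1120 windows of 50 bases in its transcripts (17.5%) are shared with Igsf5, which was listed at 0 in all 6 libraries.

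**Figure D2:**
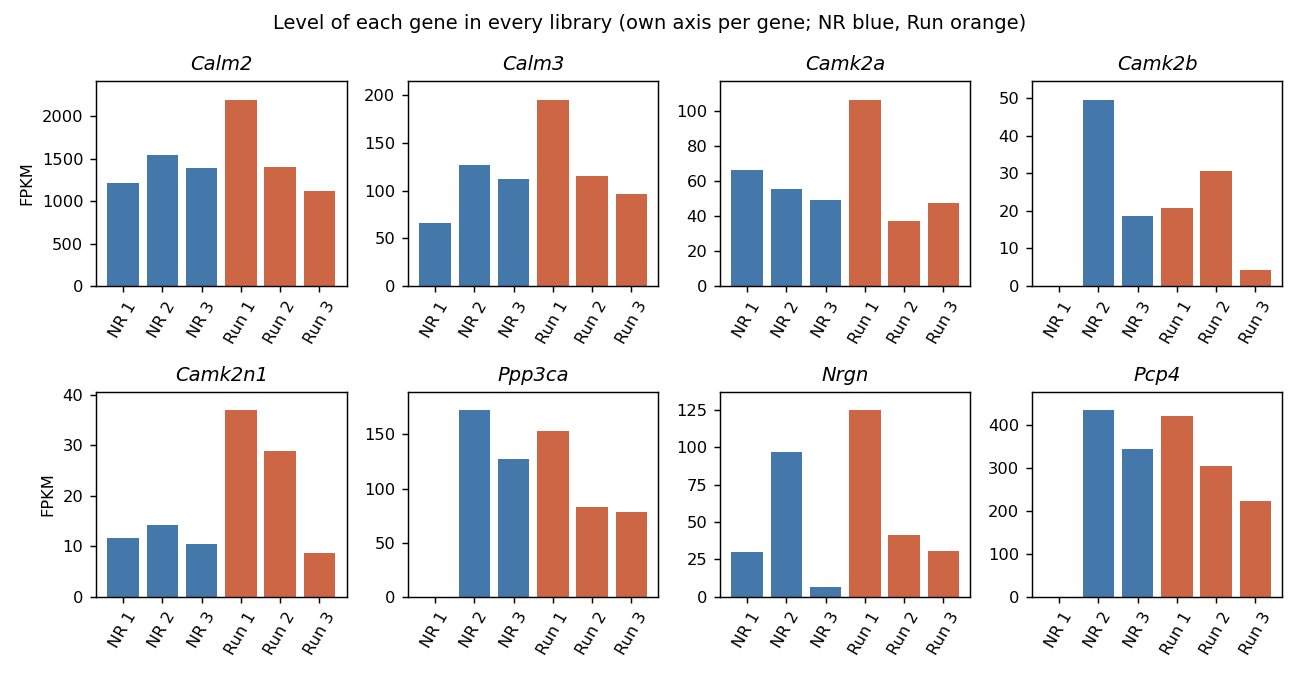
FPKM (vertical axis, starting at 0, its own scale for each gene) in the 3 NR libraries (blue) and 3 Run libraries (orange), 1 bar per library. Run replicate 1 has the highest bar for Calm2, Calm3, Camk2a, Camk2n1 and Nrgn, and NR replicate 1 has values at or near 0 for Camk2b, Ppp3ca and Pcp4.

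By median over the 6 libraries the order was Calm2 (1399 FPKM), Pcp4 (325), Calm3 (114), Ppp3ca (105), Camk2a (52.0), Nrgn (36.0), Camk2b (19.8) and Camk2n1 (13.0). Calm2 was above each of the others in 6 of 6 libraries, and Pcp4 was above Calm3 in 5 of 6. Calm3 was above Camk2a in 6 of 6 and above Ppp3ca in 4 of 6. The neighbours Camk2a and Nrgn had no fixed order, with Camk2a higher in 3 of 6 libraries, as did Camk2b and Camk2n1, with Camk2b higher in 3 of 6.

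Camk2b and Pcp4 were both at 0 in NR replicate 1 and above FPKM 1 in the other 5 libraries. That pattern is not particular to them, as Syn1 and the markers Stmn2 and S100b had it too, among others. NR replicate 1 was the lowest library, alone or tied, for 30.0% of all tested genes. That share includes genes at 0 in several libraries. Both Camk2b and Pcp4 have an entry in the RefSeq promoter table (GRCm38.p6), which holds 4 of the 8 genes. Whether their promoters bear on these values was not tested. The 250 bases before the RefSeq start are printed 5′ to 3′ on the gene's strand, from chr11:6065749-6065998 (minus) for Camk2b and chr16:96467356-96467605 (plus) for Pcp4. Capitals mark matches to GGGCGG, the GC box, and would mark matches to TATAAA, the TATA box, and to TGACG, the short form of the cyclic AMP response element TGACGTCA.
Camk2b: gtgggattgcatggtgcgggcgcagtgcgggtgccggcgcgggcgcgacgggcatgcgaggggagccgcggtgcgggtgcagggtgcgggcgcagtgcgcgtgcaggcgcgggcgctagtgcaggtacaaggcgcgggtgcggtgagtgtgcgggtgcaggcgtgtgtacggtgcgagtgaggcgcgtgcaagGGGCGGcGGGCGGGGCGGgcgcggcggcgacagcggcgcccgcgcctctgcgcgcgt
Pcp4: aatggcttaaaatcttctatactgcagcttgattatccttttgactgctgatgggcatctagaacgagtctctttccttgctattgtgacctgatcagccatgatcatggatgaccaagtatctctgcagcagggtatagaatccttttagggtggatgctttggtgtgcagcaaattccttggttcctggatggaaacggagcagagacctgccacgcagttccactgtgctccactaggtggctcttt

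On both strands the Camk2b window held 3 GC boxes, which can overlap by a base, and was 78.4% G or C, against a median of 52.4% over 32851 promoter windows of this length. The Pcp4 window held none and was 46.8% G or C. Of all such windows 32.7% held a GC box, 12.4% a TATA box, 17.8% TGACG and 1.55% TGACGTCA. Neither window held a TATA box or TGACG. The Nrgn window held 1 GC box and the Calm3 window 1 TGACG. The RefSeq and GENCODE starts need not coincide. The Camk2b window lies inside the GENCODE span of its gene, whose outermost start on the minus strand is 6066362. The Pcp4 window ends just before the first base of its gene, 96467606.

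The comparison of Run with NR asks whether running after the stress left the circuit's transcripts at another level in the labelled cells. None of the 8 genes differed between the groups at the thresholds of the test used. By limma on log2(FPKM + 1), with Benjamini-Hochberg adjustment over 6155 tested genes, 0 of 8 passed an adjusted p of 0.05, where the background over all tested genes was 0% (0 of 6155). At an unadjusted p under 0.05 there were also 0 of 8, against 4.94% of all tested genes (304). No gene of the 8 had groups that did not overlap, against 8.95% of all tested genes.

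All 8 differences, Run minus NR, were positive on that scale, with a median of 0.70, while 48.9% of all tested genes were positive, with a median of -0.03. The count of positive differences fell to 5 of 8 without NR replicate 1, to 6 without NR replicate 3 or without Run replicate 1, and stayed at 8 without any of the remaining libraries. It was 7 after quantile normalization and 7 after upper-quartile scaling. The median of the 8 was 0.08 without NR replicate 1, 1.34 without NR replicate 2, 0.37 without Run replicate 1 and 1.37 without Run replicate 3.

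The calmodulin genes had the narrowest intervals. The log2 difference of Calm2 was 0.13 ± 0.29 (SE), with a 95% interval of -0.54 to 0.81 (limma adjusted p = 0.981), and it was -0.13 without Run replicate 1. That of Calm3 was 0.39 ± 0.57, interval -0.96 to 1.74 (limma adjusted p = 0.978), and 0.09 without Run replicate 1. Camk2a differed by 0.02 ± 0.70, interval -1.64 to 1.69 (limma adjusted p = 0.997), and by -0.42 without Run replicate 1, -0.08 without NR replicate 3, -0.0026 after quantile normalization and -0.0083 after upper-quartile scaling. Camk2n1 differed by 0.77 ± 1.05, interval -1.71 to 3.24 (limma adjusted p = 0.978), and by 0.38 without Run replicate 1.

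The genes near 0 in NR replicate 1 had the widest intervals, and their sign rested on that library. Pcp4 differed by 2.53 ± 2.23 (SE), 95% interval -2.74 to 7.80 (limma adjusted p = 0.978), and by -0.34 without NR replicate 1. Ppp3ca differed by 1.83 ± 1.94, interval -2.75 to 6.41 (limma adjusted p = 0.978), and by -0.57 without that library. Camk2b differed by 0.63 ± 1.76, interval -3.54 to 4.79 (limma adjusted p = 0.983), and by -1.03 without it. Nrgn differed by 0.96 ± 1.17, interval -1.80 to 3.72 (limma adjusted p = 0.978), and by -0.0017 without NR replicate 3, its lowest library.

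**Figure D3:**
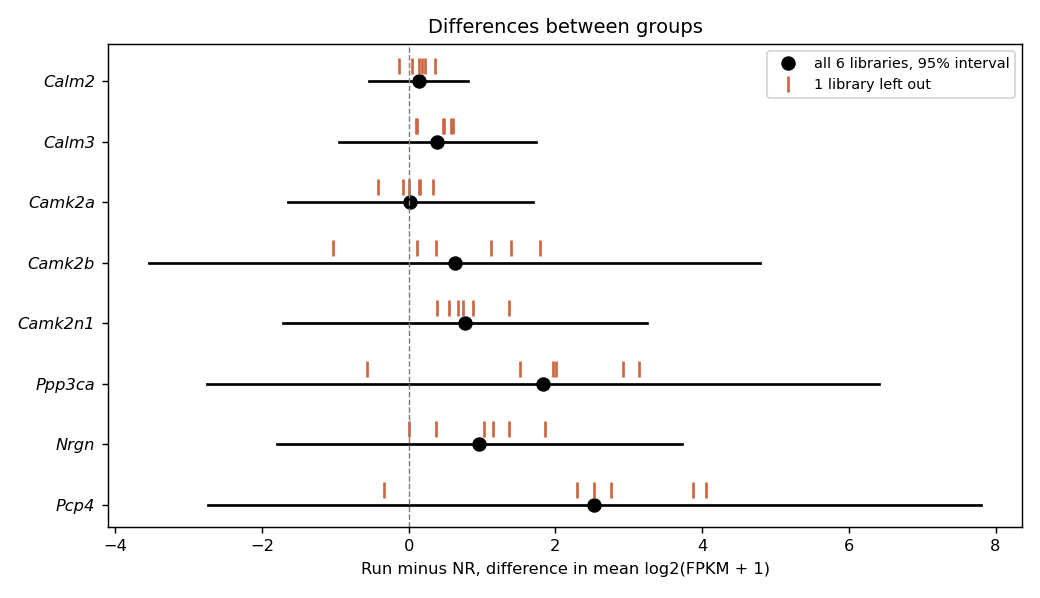
Run minus NR difference in mean log2(FPKM + 1) for each gene (black point) with its limma 95% interval (line); orange ticks give the difference with 1 library left out at a time. Every interval includes 0, from the narrow one of Calm2 (-0.54 to 0.81) to that of Pcp4 (-2.74 to 7.80).

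Set beside genes of like abundance, Pcp4 and Ppp3ca were more variable than the median gene and the other 6 were steadier than it. For Pcp4 and Ppp3ca the spread came mostly with NR replicate 1 (0 and 0.0210 FPKM). In the other libraries they were at 223 to 435 and 78.0 to 172. The genes compared can also hold entries at 0, which widen their spread, so these ranks partly reflect which genes have such entries. The residual SD of Camk2a within groups was 0.57 on the log2 scale, against a median of 2.34 over 1708 tested genes with a mean FPKM within 2-fold of it, and 7.32% of those were steadier. Calm3 (0.51, against 1.20 over 957 genes) and Camk2n1 (0.76, against 2.47 over 2561 genes) were also steadier than most, and Calm2 had 0.37 against 0.45 over 42 genes. Pcp4 had 3.53, against 0.73 over 381 genes, of which 99.0% were steadier, and Ppp3ca had 2.96 against 1.43 over 1078. Nrgn had 1.51 against 2.37, with 29.8% of 1785 like genes steadier, and Camk2b, at 2.30 against 2.49, lay close to the median, with 40.6% of 2588 steadier.

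The libraries highest and lowest in the 8 genes also differed in marker lists. NR replicate 1 had the lowest mean log2(FPKM + 1) of the 8 genes (3.88, against 5.89 to 7.27 in the others), and also the lowest of the pan-neuronal list (2.79, against 4.58 to 6.19), with 5 of the 10 markers at FPKM 1 or more. Its granule neuron mean was lowest too (0.64, against 1.54 to 3.71), and so were its microglial (0.77, against 2.23 to 4.81), CA pyramidal (0.32, against 0.45 to 2.26) and oligodendrocyte precursor means (0, against 0.22 to 1.91). It held the fewest genes at FPKM 1 or more (5426), and it was the lowest library for 4 of the 8 genes. For 30.0% of all tested genes it was lowest, alone or tied with other libraries. Run replicate 1 had the highest mean of the 8 genes (7.27) and of the pan-neuronal list (6.19). Its CA pyramidal (2.26) and mural means (7.44, against 5.91 to 7.07 in the others) were highest too. Its granule neuron mean was not (3.25, against 3.71 in NR replicate 2). The CA pyramidal list includes Slc17a7, which was at 29.5 FPKM in Run replicate 1 and at no more than 7.75 in any other library. Run replicate 1 had the lowest astrocyte (6.94, against 7.23 to 7.90) and oligodendrocyte means (where the other 5 lay between 3.49 and 6.82). Its choroid plexus and ependymal mean was also the lowest (1.52). Of the 8 genes, 5 had their highest value in Run replicate 1, where 20.6% of all tested genes did. The part of these other transcripts in the values of the 8 genes was not tested.

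**Figure D4:**
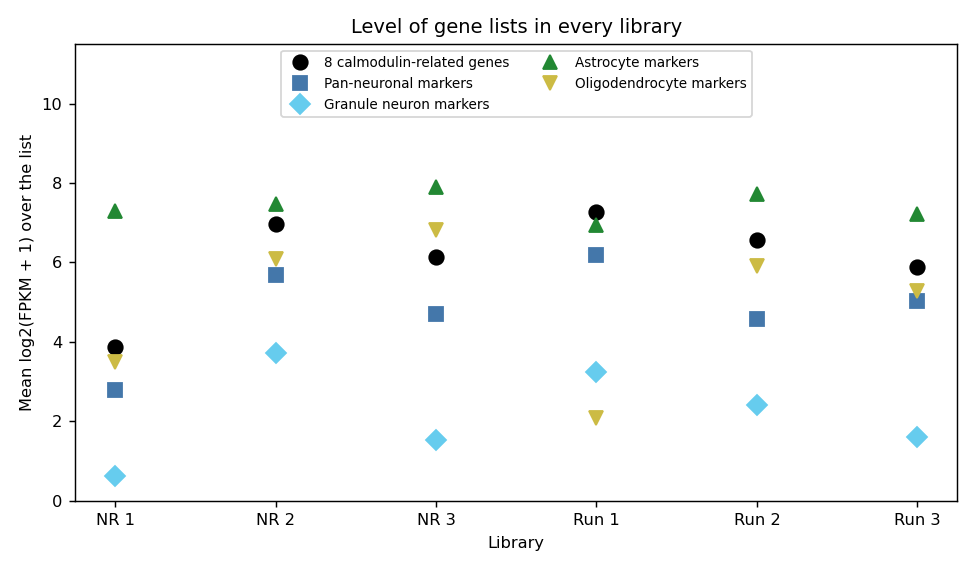
Mean log2(FPKM + 1) (vertical axis) of the 8 calmodulin-related genes and of 4 marker lists in each library (horizontal axis), 1 symbol per list. The 8 genes and the pan-neuronal markers are both lowest in NR replicate 1 (3.88 and 2.79) and highest in Run replicate 1 (7.27 and 6.19).

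The rest of the calcium and calmodulin pathway was read from a list of 60 further genes, of which 30 were abundant enough to test and 11 stayed below FPKM 1 in every library. None passed the adjusted threshold by limma (0 of 6155 genes did). At an unadjusted p under 0.05, 1 of 30 was higher in Run (2.45% of all tested genes were) and 1 was lower (2.49% were). The same 2 genes were the ones whose groups did not overlap, against 4.76% of all tested genes with Run above and 4.19% with Run below. By role, tested genes with a positive difference numbered 4 of 6 kinase genes, 1 of 4 calcineurin genes, 3 of 4 calmodulin-binding buffers, 5 of 7 calcium buffers and sensors, 4 of 5 calmodulin-regulated enzymes and pumps and 4 of 4 target genes (3 for glutamate receptor subunits and Syn1 for synapsin). Positive differences numbered 21 of 30 in all, with a median of 0.30. Among all tested genes 48.9% were positive, with a median of -0.03. The list count was 14 without Run replicate 2, 15 without NR replicate 1, 16 without NR replicate 3 and 17 without Run replicate 1. It was 20 without NR replicate 2 and 21 without Run replicate 3.

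Gap43 (chromosome 16, 42248442 to 42340651), the growth-cone relative of neurogranin that also binds calmodulin through an IQ motif, had 0.643, 10.3 and 0 FPKM without running and 23.2, 35.6 and 57.3 after running. All 3 Run libraries lay above all NR libraries. The log2 difference was 3.81 ± 1.39 (SE), 95% interval 0.53 to 7.09 (limma adjusted p = 0.853, 0.0287 before adjustment). Before adjustment the limma value was 0.0634 without NR replicate 1, 0.0673 without NR replicate 3, 0.0576 without Run replicate 2 and 0.0743 without Run replicate 3, and it was 0.0502 with the replicate number as a block. Atp2b1 (chromosome 10, 98914406 to 99026143), a calmodulin-activated plasma membrane pump that expels calcium, had 33.4, 137 and 34.2 without running and 4.68, 5.98 and 5.53 after running. Every Run value was below every NR value, and the Run libraries lay close together. Its log2 difference was -3.11 ± 1.04 (SE), 95% interval -5.57 to -0.66 (limma adjusted p = 0.695, 0.0201 before adjustment). Before adjustment it was 0.0784 without NR replicate 2.

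Of the other genes on the list, Pcp4l1, a close relative of Pcp4, was at 232, 302 and 155 FPKM without running and 257, 52.3 and 172 after running. In NR replicate 1, where Pcp4 was listed at 0, Pcp4l1 was listed at 232 FPKM. Its log2 difference was -0.74 ± 0.69 (SE; limma adjusted p = 0.978). Ncald, a neuronal calcium sensor gene, had 22.0, 70.1 and 70.9 without running and 149, 115 and 42.2 after running (0.89 ± 0.82). Marcksl1, of the calmodulin-binding MARCKS family, had 54.3, 18.9 and 49.5 without running and 77.3, 46.7 and 93.7 after running (0.89 ± 0.76), and Marcks had 4.01, 15.4 and 14.5 without running and 6.50, 56.7 and 4.58 after running (0.31 ± 1.38). The groups overlapped for each of these 4 genes. The difference of Marcks was -0.25 without NR replicate 1 and -0.75 without Run replicate 2.

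**Figure D5:**
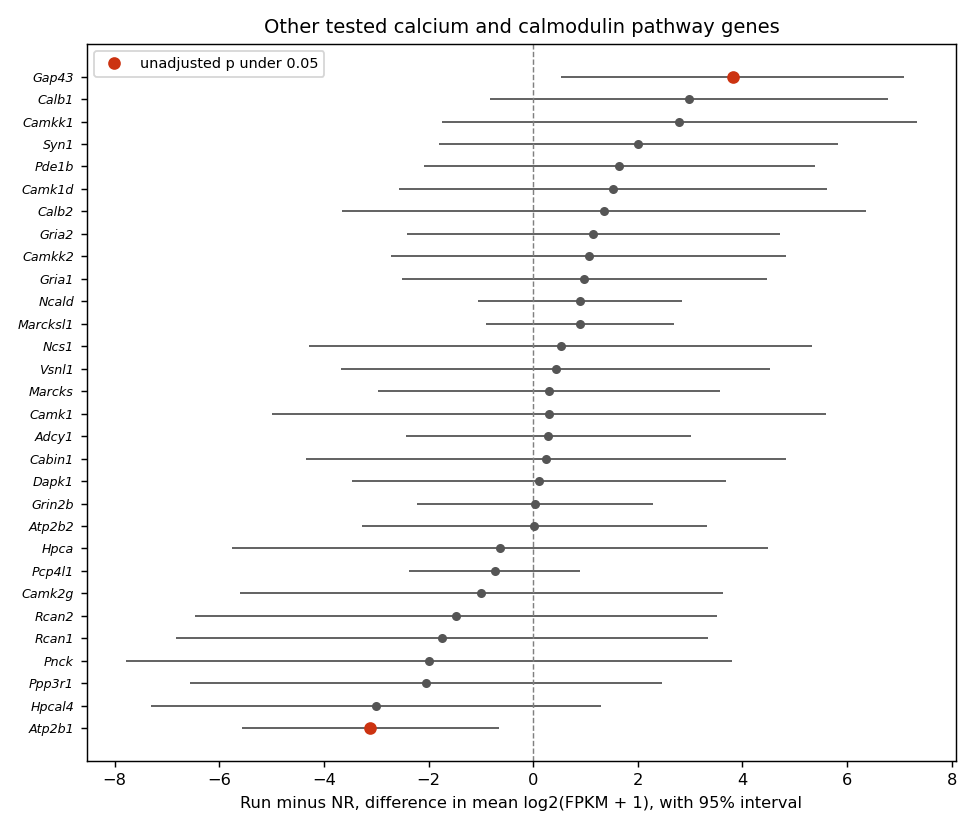
Run minus NR difference in mean log2(FPKM + 1) (horizontal axis) with 95% intervals for the 30 tested pathway genes, ordered by size. Gap43 (3.81) and Atp2b1 (-3.11), in red, are the genes with an unadjusted p under 0.05, and neither passes after adjustment over all genes.

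The genes that varied most alike with 5 of the 8 across libraries were looked for among genes at FPKM 1 or more in all 6 libraries. Likeness was the root mean square difference between log2(FPKM + 1) profiles, each centred on its own mean. Among the 1749 genes compared with it, those nearest to Calm2 were Gm10054 (0.15), Atp5l-ps2 (0.16) and Gm10335 (0.17), where the median gene was at 0.72, and Calm3 was in place 18 (0.23). For Calm3 the nearest were Rpl9-ps4 (0.14), Gm5451 (0.15) and Gm7308 (0.18), the last being the pseudogene that shares sequence with Calm2, and Calm2 was in place 6. Several of these neighbours were low. Gm10054 and Atp5l-ps2 did not exceed 4.35 FPKM in any library, and Rpl9-ps4, Gm5451 and Gm7308 did not exceed 6.19. At such levels the added 1 narrows differences on the log2 scale, so low genes can lie near a steady gene for that reason. Camk2a was nearest to Gm8451 (0.13), Gm7536 (0.14) and Eno1b (0.17), and Camk2n1 to Oip5os1 (0.29), Ncdn (0.31) and Cuta (0.33). Nrgn was nearest to Pum2 (0.27), Zfp706 (0.28) and Bex2 (0.40). The profiles of Calm2 and Nrgn were 1.17 apart, which put Nrgn in place 1441 for Calm2 and Calm2 in place 254 for Nrgn, whose distances to other genes were larger (median 1.46). These are descriptions over 6 libraries, in which genes of a library share its depth and its mixture of cells.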

How the data were processed

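RNA was measured in 6 libraries, 3 NR and 3 Run. The authors deposited FPKM values in 1 table. Per the submitters' processing notes the tools were Trimmomatic 0.39, STAR 2.7.5c, StringTie 2.1.7, DESeq2 and edgeR and the build mm10, with roles and annotation not given in the sources used here. Read totals are not given. Taking FPKM times length in genes of 1 transcript, 13.1% to 14.6% of low values lay within 0.05 of a whole multiple of the best step, where an even spread gives 10%, so reads were not recovered and depth is unknown.

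Values were tested as log2(FPKM + 1), unscaled, over the 6155 genes that reached FPKM 1 in 3 or more libraries, with limma 3.58.1 in R 4.3.3 (mean-variance trend, 2-sided, Benjamini-Hochberg, threshold 0.05). Fold changes on this scale understate those of low genes. The script was tested on simulated data. Of the symbols, 53289 matched GENCODE M21 (mm10), the source of coordinates and coding sequences. Python 3.11.15 and matplotlib 3.10.9 made tables and plots.

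The members and lists were chosen with earlier results of these data known. Some listed items are not reported here, and list counts and profile comparisons leave them out. By rule the text names all members, list genes at FPKM 1 in all libraries or at unadjusted p under 0.05, close relatives or partners, and the 3 nearest profiles per member. Alternatives were other pseudocounts, filters and scalings, no trend, a replicate block and leaving out each library.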

Additional observations from a re-analysis of the deposited data

How the results depend on the processing

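No alternative moved any of the 8 genes past the adjusted threshold, and the count of genes past it over the whole table was 0 in each of the 15 alternatives by limma. Leaving out 1 library at a time gave log2 differences of -0.13 to 0.35 for Calm2, -0.42 to 0.33 for Camk2a, -1.03 to 1.80 for Camk2b, -0.57 to 3.14 for Ppp3ca, -0.0017 to 1.86 for Nrgn, -0.34 to 4.05 for Pcp4 and -0.75 to 0.94 for Marcks. Camk2a was also reversed by quantile normalization (-0.0026) and upper-quartile scaling (-0.0083). Calm3, Camk2n1, Pcp4l1, Marcksl1, Ncald, Atp2b1 and Gap43 kept their direction in every alternative in which they were tested. With a filter of FPKM 1 in all 6 libraries, 1751 genes were tested, and 82 genes in place of 304 had an unadjusted p under 0.05, as did 1 pathway list gene in place of 2; Camk2b, Ppp3ca, Pcp4 and Gap43 were not in that test. The pathway list count was 1 to 3 when 1 library was left out. With no filter 404 of 17361 genes had an unadjusted p under 0.05. The replicate numbers do not pair the libraries by the check used: deviations from group means of same-numbered libraries correlated at 0.0211, 0.00416 and 0.0179 across genes, though each library correlated best with its own number. The fit with the replicate number as a block gave 251 genes at an unadjusted p under 0.05 and 1 pathway list gene, Atp2b1, with Gap43 no longer among them. Depth is unknown, and 3 libraries against 3 limit the precision to the intervals given.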
